A study of Homo sapiens with 10 samples.

Results

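The heat shock proteins and chaperonins described here are 84 of the 22626 rows of the deposited read-count table of ARPE-19 cells. They were picked by gene symbol alone: the HSPA, HSPB, HSPD, HSPE, HSPH, HSP90AA and HSP90AB genes, the DNAJA, DNAJB and DNAJC genes, TCP1 and the CCT genes, BAG1 to BAG6, HSF1 and HSF2, without HSPA5, HSPA13, HSPA4L, DNAJB9, DNAJB11, DNAJC3 and DNAJC10. The rule names symbols and no measured value, although it was written with earlier results of these data known. The set is called cytosolic, but 8 of its members were listed as mitochondrial (HSPA9, HSPD1, HSPE1, DNAJA3, DNAJC11, DNAJC15, DNAJC19 and DNAJC28) and 8 as belonging to the endoplasmic reticulum or secretory path (DNAJB12, DNAJB14, DNAJC1, DNAJC14, DNAJC16, DNAJC18, DNAJC22 and DNAJC25), and these are counted apart from the other 68. DNAJC30, also a mitochondrial protein, was not on that list and is counted with the 68.

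Chaperones bind unfolded or partly folded proteins and let them fold, be refolded or be handed on for degradation. HSP70 proteins work in cycles of ATP use that J-domain proteins start and that exchange factors such as the BAG proteins end, HSP90 finishes the folding of kinases and receptors, and barrel-shaped chaperonins enclose whole proteins such as actin and tubulin. The transcription factor HSF1 drives the inducible genes of this network in heat and other protein stress, and in the retinal pigment epithelium (RPE), a long-lived layer that digests the shed tips of photoreceptors each day, the network is known for its part in keeping proteins folded.

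These cells are a spontaneously arisen, established line of human RPE. The control group (MG) received medium with 5.5 mM glucose and 32 mM mannitol for 48 h, and the high glucose group (HG) 37.5 mM glucose for 48 h, with 5 libraries each. All cells were grown in DMEM with fetal bovine serum and antibiotics, and the labels name no genetic change in either group. Mannitol is a sugar alcohol that balances the osmotic load of glucose, so the comparison asks what glucose itself changed, in a study concerned with early diabetic retinopathy. Nothing in the labels says that the libraries came from separate cultures, so p-values measure the spread between these libraries, which may be technical. MG libraries carry the number of their label, while HG libraries are named by deposited column (HG_1 to HG_5), since their labels carry letters.

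Libraries held between 32448991 and 45864176 counts. MG_2 and HG_1 stood apart. Their counts rose with the GC content of a gene, by 0.17 and 0.188 (log2 scale) per 10 percentage points. The other libraries were at -0.0439 to -0.00519 in MG and at -0.0916 to -0.0259 in HG. Without that pair the slopes of the groups therefore still differ, with some overlap. The main counts and many genes below are also given without the pair. TXNIP, a gene known to respond to glucose, was 0.81 to 1.23 CPM in MG and 5.38 to 12.9 CPM in HG, as the labels have it. Epithelial keratin KRT8 (1050 to 2090 CPM) and the RPE factors OTX2 (87.0 to 102 CPM) and MITF (43.9 to 64.9 CPM) were present, while RPE65 (0 to 0.135 CPM) and TYR (0 to 0.818 CPM), which mark mature RPE, were near 0. Of the other markers of mature RPE, RLBP1 was at 7.45 to 12.8 CPM, PMEL at 1.92 to 4.35 CPM, and BEST1 varied from 0.577 to 551 CPM with a median of 5.7 CPM. Leukocyte and endothelial markers PTPRC, CD3E, PECAM1 and CDH5 did not exceed 0.122 CPM, and VWF did not exceed 0.538 CPM. CD68, also a lysosomal protein, was at 54.5 to 143 CPM.

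Heat shock elements are the DNA stretches that HSF1 binds, built from inverted GAA units. Promoters that hold the strictest form are shown here. Members were chosen by symbol and not by sequence, but heat shock genes are named for the response that HSF1 drives. An excess of elements among them is therefore no independent result. Windows from 250 bases before to 50 bases after each RefSeq start site (GRCh38.p14) were searched on both strands, and 73 of the 84 members had at least 1 such window, 95 windows in all. Elements of 3 units, TTCNNGAANNTTC or its reverse complement GAANNTTCNNGAA, were found in 7 of the 95 member windows (7.37%) and in 172 of all 35116 windows (0.49%). Each lies in a different gene: HSPA8, HSPD1, HSP90AA1, HSP90AB1, DNAJA1, DNAJB6 and HSPA6. Elements of 2 units, GAANNTTC or TTCNNGAA, each of which is also part of the 3-unit form, were found in 28.4% of the member windows and in 13.5% of all windows. In the stretches below the capitals mark the 3-unit element, except in HSPA1A and HSPB8, where they mark GAANNTTC. Each is written 5′ to 3′ on the strand of its gene, and such a match describes letters, not binding.
HSPA8, chr11:123062171-123062199, minus strand, first capital 55 bases before the start: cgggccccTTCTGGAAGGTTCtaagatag
HSPA8, chr11:123062346-123062374, minus strand, first capital 230 bases before the start: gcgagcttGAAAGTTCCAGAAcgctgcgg
HSPD1, chr2:197500060-197500088, minus strand, first capital 240 bases before the start: attttctgGAAAGTTCTGGAAccgagcga
HSPD1, chr2:197500065-197500090, minus strand, first capital 245 bases before the start: gcattTTCTGGAAAGTTCtggaaccg
DNAJA1, chr9:33025268-33025296, plus strand, first capital 4 bases after the start: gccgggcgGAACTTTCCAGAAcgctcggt
HSP90AA1, chr14:102087112-102087140, minus strand, first capital 88 bases before the start: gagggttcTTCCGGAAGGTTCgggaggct
HSP90AB1, chr6:44247748-44247820, plus strand, first capital 165 bases before the start: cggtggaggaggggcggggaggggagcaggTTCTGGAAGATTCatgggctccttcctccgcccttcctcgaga
HSP90AB1, chr6:44247823-44247851, plus strand, first capital 112 bases before the start: tgagattgTTCTGGAAGCTTCtggattct
DNAJB6, chr7:157336843-157336915, plus strand, first capital 131 bases before the start: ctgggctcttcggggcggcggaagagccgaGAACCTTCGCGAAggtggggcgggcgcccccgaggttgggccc
HSPA6, chr1:161524436-161524508, plus strand, first capital 74 bases before the start: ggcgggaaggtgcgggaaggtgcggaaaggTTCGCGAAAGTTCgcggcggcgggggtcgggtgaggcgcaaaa
HSPA1A, chr6:31815429-31815452, plus strand, first capital 106 bases before the start: aaaccctgGAATATTCccgacctg
HSPB8, chr12:119178835-119178858, plus strand, first capital 88 bases before the start: tcacctccGAATATTCctgtgaca

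Of these 7 genes with the 3-unit element, HSPA8 and HSPD1 rose in HG, DNAJA1 fell, and HSP90AA1, HSP90AB1, DNAJB6 and HSPA6 did not pass the test, which makes 3 of 7 beside 15.4% of all rows tested. Their median log2 fold change was 0.06. Without MG_2 and HG_1, 2 of the 7 were higher and 2 lower, beside 27.1% of all rows. Of the 24 tested members with GAANNTTC or TTCNNGAA, 4 rose, 3 fell and 17 did not pass, beside 15.4% of all rows called. HSPB8 was among those that rose, HSPA1A did not pass, and HSPB8 holds another GAANNTTC 5 bases after its start. Without MG_2 and HG_1, 5 of the 24 were higher and 5 lower, beside 27.1% of all rows. HSPD1 has 2 RefSeq starts, 105 and 539 bases from the start of HSPE1, which is read in the opposite direction. Its elements above overlap and belong to the window of the farther start.

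Across the whole set, small changes in both directions were measured rather than a shift one way. Of the 84 members, 72 passed the filter on low counts, and 11 of these 72 (15.3%) passed edgeR's quasi-likelihood test at a Benjamini-Hochberg adjusted p under 0.05, beside 15.4% of all 14936 rows tested. Higher in HG were 6 members (7.62% of all rows tested were), namely HSPA8, HSPA9, HSPD1, HSPB8, BAG1 and DNAJC27. Lower were 5 members (7.8% of all rows tested were), namely TCP1, CCT2, DNAJA1, DNAJC2 and DNAJC9. The share of members called was thus close to that of all rows, and their changes were between 1.1-fold and 1.36-fold upward and between 1.14-fold and 1.2-fold downward. The median log2 fold change of the 72 members was 0.02 and that of all rows 0.00. By location, 2 of the 8 listed mitochondrial members rose and none of the 8 fell (median 0.13), 4 of 56 other members rose and 5 fell (median 0.01, DNAJC30 among them at 0.04), and of the 8 endoplasmic reticulum members 0 passed by edgeR or by DESeq2, with 0 at an unadjusted p under 0.05. Because RNA was taken from whole cultures, fewer cells with a transcript and less of it per cell cannot be told apart.

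**Figure D1:**
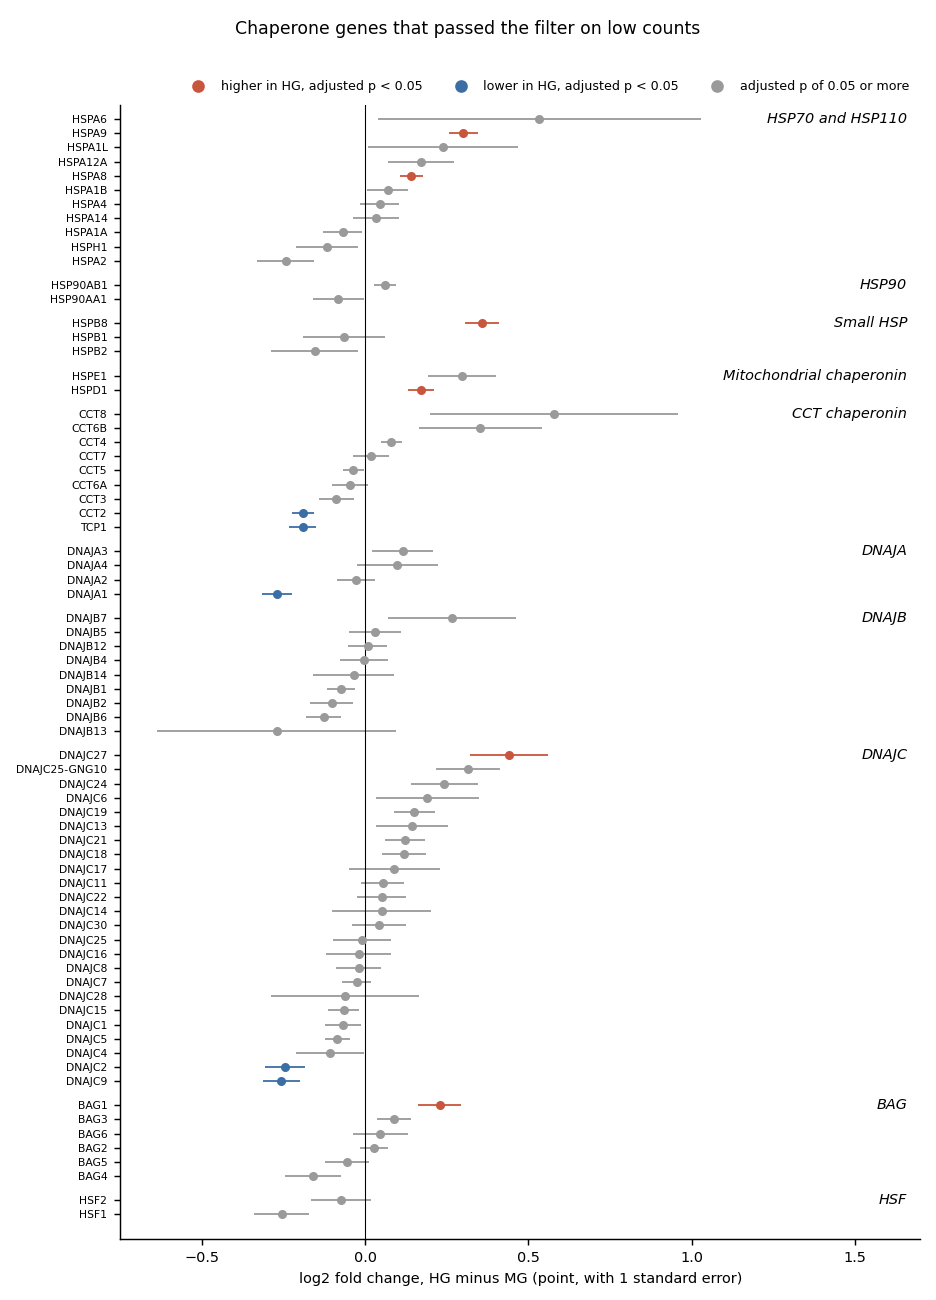
Log2 fold change (HG minus MG, x axis, with 1 standard error) of the 72 members that passed the filter, grouped by family, from 5 libraries a group. The 6 red points (higher) and the 5 blue points (lower) passed the test, and the values of the tested members lie between -0.27 and 0.58.

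Libraries of MG and HG did not overlap for 14 of the 72 members (19.4%), beside 13.6% of all rows tested. HG was above MG in 9 (6.74% of all rows) and below in 5 (6.91%). These 14 are the 11 members called together with CCT4, DNAJC18 and HSP90AB1, each higher in all 5 HG libraries. Without MG_2 and HG_1, 21 members passed, 12 higher and 9 lower (29.2%), while 27.1% of all rows did, 13.3% higher and 13.8% lower. All 11 members called with every library were among the 21, in the same direction. The 10 that joined them were CCT4, DNAJC13, DNAJC21, DNAJC24, DNAJC25-GNG10 and HSPE1, higher in HG, and CCT3, DNAJB1, DNAJB2 and DNAJB6, lower in HG. After a correction for GC content and transcript length, 18 members passed (25.0%), 8 higher and 10 lower, beside 29.3% of all rows, 14.5% higher and 14.8% lower. Of the 10 that joined without the pair, CCT3, DNAJB1, DNAJC13 and HSPE1 passed there too, and the others did not. With 1 surrogate variable in the fit, 25 passed (34.7%), 14 higher and 11 lower, beside 33% of all rows, 16.5% in each direction. DESeq2 called 16 of the 80 members it tested, 10 higher and 6 lower, beside 16.6% of all rows, 8.05% higher and 8.53% lower. In each of these fits the 11 members were called in the same direction.

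**Figure D2:**
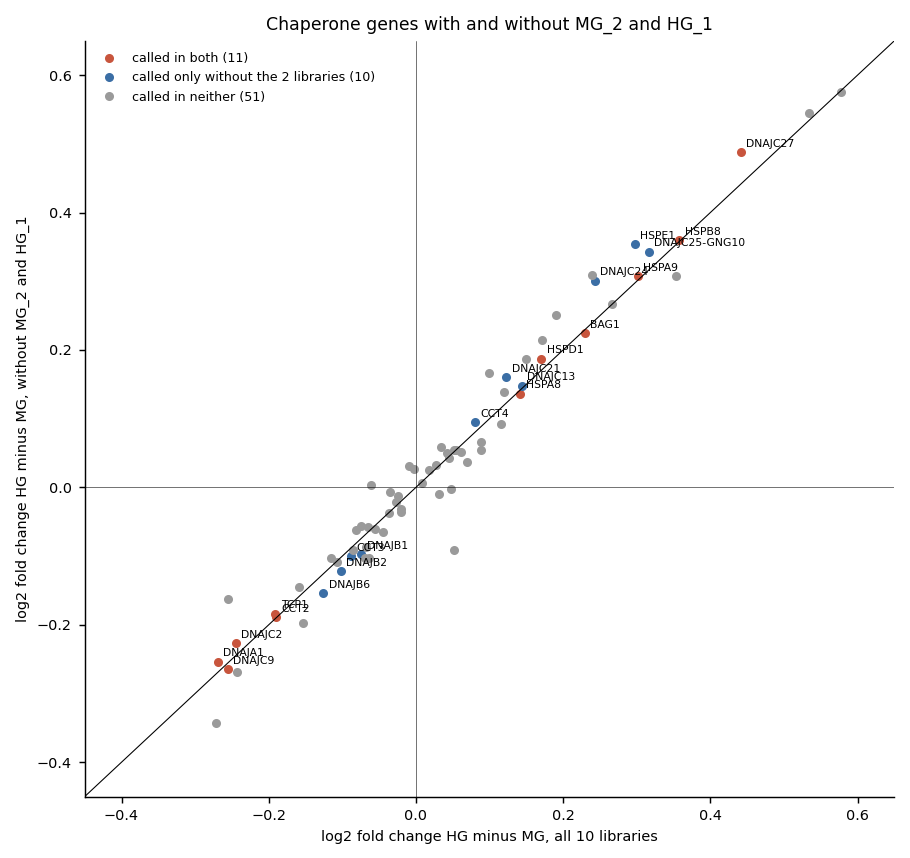
Log2 fold change of each of the 72 tested members with all 10 libraries (x axis) and without MG_2 and HG_1 (y axis), with the line of equal values. The 11 red points were called in both, the 10 blue points only without the pair, and all of these lie near the line.

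Levels per transcript length, in FPKM, spanned a wide range. HSPA8, the constitutive cytosolic HSP70 that also uncoats clathrin vesicles, was the highest at 766 ± 6.84 FPKM in MG and 852 ± 19.8 FPKM in HG (SD, n = 5 each). It was followed by HSP90AB1, the constitutive cytosolic HSP90, at 467 ± 13.9 FPKM in MG. HSPB1, a small heat shock protein that guards actin filaments, stood at 422 ± 48.1 FPKM and HSP90AA1, the inducible HSP90, at 331 ± 26.7 FPKM in MG. HSP90AB1 and HSPB1 were closer to each other than the SD of HSPB1. HSPA8 made up 17.0% to 17.3% of the summed FPKM of all members in the MG libraries and 18.1% to 18.7% in the HG libraries, with no overlap. The sum itself was between 4450 and 4500 FPKM in MG and between 4560 and 4720 FPKM in HG, also with no overlap. As a share of all FPKM of a library it was 0.977% to 1.07% in MG and 0.976% to 1.11% in HG, which overlap.

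**Figure D3:**
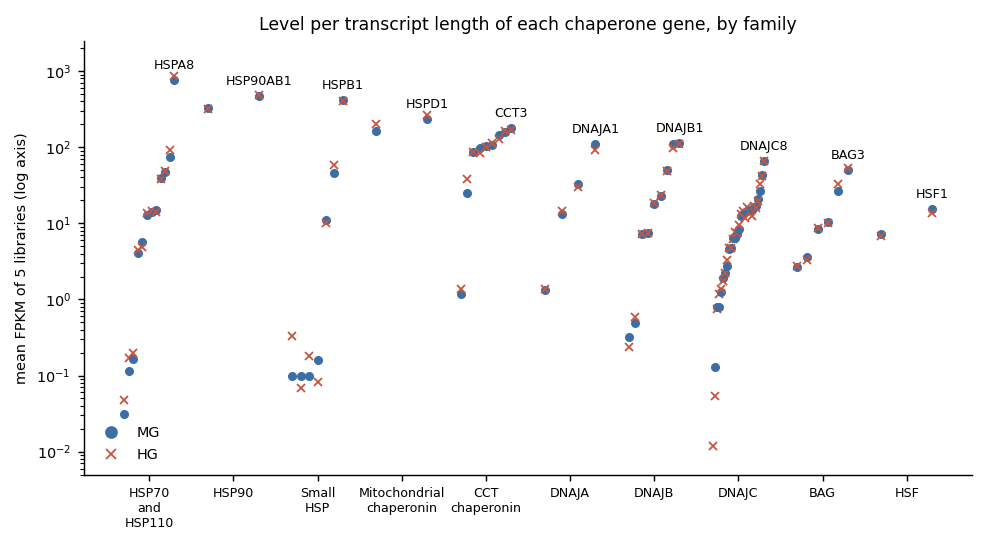
Mean FPKM of 5 libraries (log y axis) of each member by family, with circles for MG and crosses for HG; means of 0 are not drawn. HSPA8 is the highest at 766 FPKM in MG and 852 FPKM in HG, and the highest gene of each family is named.

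Among the HSP70 and HSP110 proteins, 11 of 12 genes passed the filter, 2 rose and 0 fell by edgeR (3 of the 11 had an unadjusted p under 0.05), beside 15.4% of all rows called. After the GC and length correction 2 were higher and 2 lower, beside 29.3% of all rows. HSPA9 (chr5:138553756-138575724, minus strand), the mitochondrial HSP70 that pulls imported proteins into the matrix, had 336.3, 335.8, 361.5, 366.5 and 362.2 CPM in MG_1 to MG_5 and 407.3, 443.7, 424.9, 458.1 and 436.9 CPM in HG_1 to HG_5. CPM here is the count scaled to library size after TMM normalization. All HG libraries lay above all MG libraries, with means of 352 ± 15.1 CPM in MG and 434 ± 19.2 CPM in HG and a log2 fold change of 0.30 (SE 0.0453, edgeR adjusted p = 0.00146). HSPA8 (chr11:123057489-123063230, minus strand) had 1845.2, 1890.7, 1863.5, 1879.1 and 1838.6 CPM in MG_1 to MG_5 and 2124.9, 2024.8, 1975, 2092.5 and 2064.6 CPM in HG_1 to HG_5. Again the groups did not overlap, at 1860 ± 22 CPM in MG and 2060 ± 58.5 CPM in HG, a log2 fold change of 0.14 (SE 0.035, edgeR adjusted p = 0.0195). This call is lost when MG_5 is left out (edgeR adjusted p = 0.0537), though the log2 fold change remained between 0.13 and 0.16 with any 1 library left out.

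The stress-inducible HSP70 genes, which rise first in heat shock, were low and did not pass. HSPA1A had 41.1, 39.5, 37.4, 37.4 and 37.6 CPM in MG_1 to MG_5 and 41.2, 35, 36.9, 36.2 and 34.8 CPM in HG_1 to HG_5, with a log2 fold change of -0.07 (SE 0.0589, edgeR adjusted p = 0.504). HSPA1B, its near-copy, had 35.6, 37.5, 34.6, 35.4 and 34.3 CPM in MG_1 to MG_5 and 42.6, 34.7, 37.3, 35.5 and 36 CPM in HG_1 to HG_5, and a log2 fold change of 0.07 (SE 0.0628, edgeR adjusted p = 0.535). Groups overlapped for both genes. Of the 100-base windows of HSPA1A, 69.9% occur also in other genes, mainly HSPA1B. The split of reads between HSPA1A and HSPA1B is therefore uncertain, and their summed level was 69.6 to 83.9 CPM across libraries. Per length, HSPA1A stood at 0.0187 to 0.0208 times HSPA8 in FPKM in MG and at 0.0158 to 0.0181 in HG. HSPA6, a strictly heat-induced HSP70, was at 0.311 CPM in MG and 0.45 CPM in HG on average.

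The HSP110 genes of the set, whose proteins act as exchange factors of HSP70, did not pass with all libraries. HSPH1, an HSP110 exchange factor, had 235.4, 176.9, 216.2, 212.1 and 220.9 CPM in MG_1 to MG_5 and 157.2, 198.1, 197.5, 216.3 and 211 CPM in HG_1 to HG_5. MG_2 and HG_1 were the lowest of their groups and the ranges overlapped, with a log2 fold change of -0.12 (SE 0.0949, edgeR adjusted p = 0.487). After the GC and length correction HSPH1 passed as lower (edgeR adjusted p = 0.0133). HSPA4, a second HSP110, had 251.7, 215.5, 244.3, 253.3 and 250 CPM in MG_1 to MG_5 and 225.5, 249, 247.8, 266.4 and 264.9 CPM in HG_1 to HG_5. Its groups overlapped too, with a log2 fold change of 0.04 (SE 0.0601, edgeR adjusted p = 0.694). Remaining HSP70 genes were at -0.24 (HSPA2), 0.03 (HSPA14), 0.17 (HSPA12A) and 0.24 (HSPA1L) on the log2 scale, and HSPA12B stayed below the filter.

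For HSP90, 0 of 2 genes passed by edgeR, beside 15.4% of all rows called, and 0 had an unadjusted p under 0.05. HSP90AB1 was called higher by DESeq2 and with 1 surrogate variable in edgeR, beside 16.6% and 33% of all rows. HSP90AB1 had 1295, 1256.2, 1302.9, 1306.6 and 1304.6 CPM in MG_1 to MG_5 and 1348, 1323.8, 1339.9, 1365.6 and 1367.1 CPM in HG_1 to HG_5. Every HG library exceeded every MG library, and the log2 fold change was 0.06 (SE 0.0327, edgeR adjusted p = 0.256). HSP90AA1 had 1284.1, 1067.3, 1235, 1223.8 and 1247.1 CPM in MG_1 to MG_5 and 944, 1199.6, 1153.3, 1252.7 and 1171.3 CPM in HG_1 to HG_5. Its lowest values were those of MG_2 and HG_1, the groups overlapped, and the log2 fold change was -0.08 (SE 0.0776, edgeR adjusted p = 0.552).

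Small heat shock proteins hold unfolded proteins in a soluble state without using ATP. Only 3 of the 8 HSPB genes passed the filter, and 1 rose, beside 15.4% of all rows called. With 1 surrogate variable 1 was higher and 1 lower, beside 33% of all rows. HSPB8 (chr12:119178642-119221131, plus strand), which works with BAG3 in the disposal of aggregated proteins by autophagy, had 85.6, 97.2, 90.3, 89.5 and 90.4 CPM in MG_1 to MG_5 and 124.3, 120.1, 117.7, 106.6 and 111.8 CPM in HG_1 to HG_5. With 90.6 ± 4.16 CPM in MG and 116 ± 7 CPM in HG, the groups did not overlap, and the log2 fold change was 0.36 (SE 0.0528, edgeR adjusted p = 0.00133). HSPB1 had 333.8, 437.2, 329.1, 331.3 and 346.1 CPM in MG_1 to MG_5 and 453.6, 287.6, 334.4, 302.3 and 322.7 CPM in HG_1 to HG_5. MG_2 and HG_1 were the highest of their groups, the others overlapped, and the log2 fold change was -0.06 (SE 0.126, edgeR adjusted p = 0.802). It was -0.19 without HG_1 and 0.02 without MG_2, and HSPB1 was called lower with 1 surrogate variable (log2 fold change -0.15, edgeR adjusted p = 0.0139). HSPB2 was at -0.15 on the log2 scale and shares 50.3% of its 100-base windows with other genes, mainly the readthrough gene HSPB2-C11orf52.

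Mitochondrial chaperonin is a barrel of HSPD1 with a lid of HSPE1, encoded head to head on chromosome 2. HSPD1 (chr2:197486581-197516737, minus strand) had 569.4, 560.6, 572.4, 559.4 and 585 CPM in MG_1 to MG_5 and 602.1, 631.2, 638.3, 677.1 and 653.7 CPM in HG_1 to HG_5. At 569 ± 10.3 CPM in MG and 640 ± 27.7 CPM in HG, HG was above MG in every library, with a log2 fold change of 0.17 (SE 0.0397, edgeR adjusted p = 0.0153). HSPE1 (chr2:197499994-197503457, plus strand) had 87.9, 126.4, 98.5, 90.9 and 88.4 CPM in MG_1 to MG_5 and 137.9, 110.1, 118.3, 115 and 123.5 CPM in HG_1 to HG_5. Only MG_2 reached into the HG range, and the log2 fold change was 0.30 (SE 0.104, edgeR adjusted p = 0.0811). Without MG_2 and HG_1 it was 0.35, with an edgeR adjusted p of 0.00105, and HSPE1 was also called higher after the GC and length correction, with 1 surrogate variable and by DESeq2. Readthrough gene HSPE1-MOB4, which shares sequence with HSPE1, had 129 counts in HG_1 and 0 in the other libraries. Per length the ratio of HSPD1 to HSPE1 was 1.09 and 1.08 in MG_2 and HG_1 and between 1.30 and 1.63 in the other 8 libraries.

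**Figure D4:**
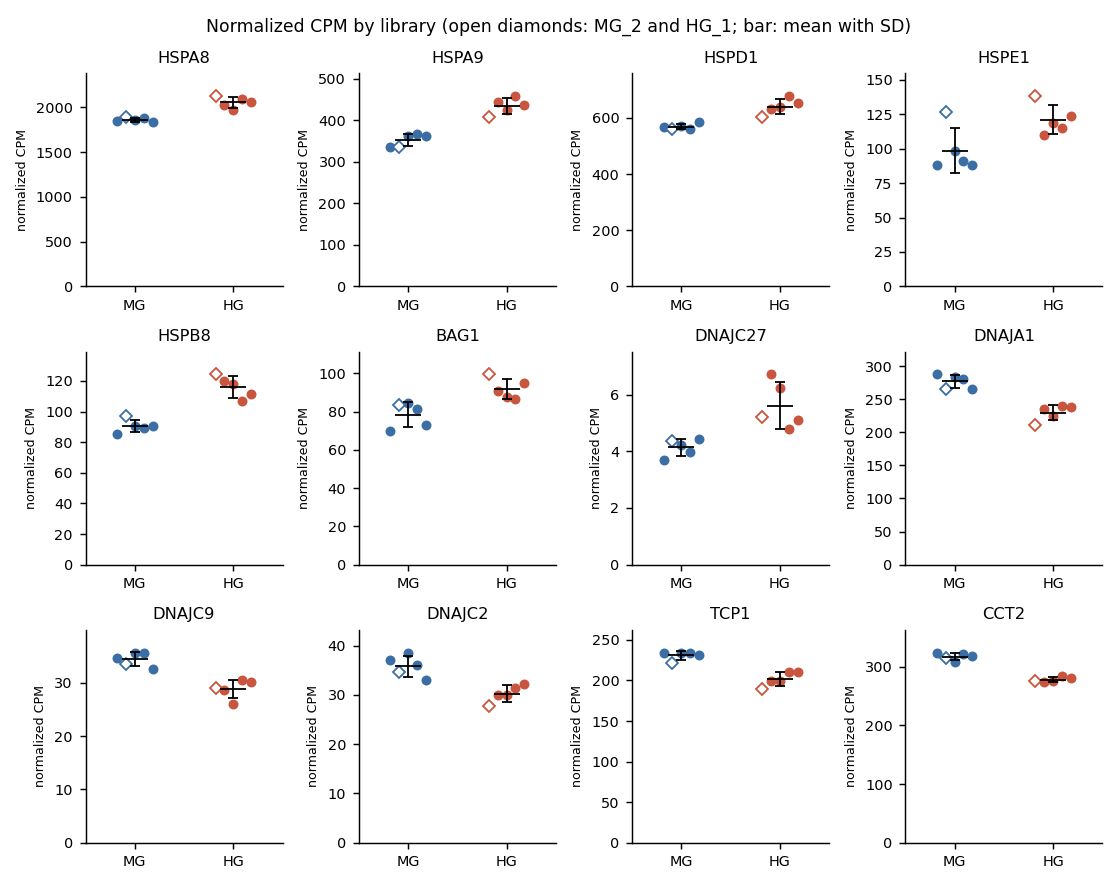
Normalized CPM (y axis, from 0) in each library of the 11 members called and of HSPE1; circles are libraries, open diamonds MG_2 and HG_1, bars the mean with SD of 5 libraries. Groups are apart in each panel except HSPE1, where MG_2 at 126.4 CPM lies within the HG range.

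The cytosolic chaperonin CCT (also TRiC) is built of 8 kinds of subunit in equal number. Of its 10 genes 9 passed the filter, 2 fell and 0 rose by edgeR (3 of the 9 had an unadjusted p under 0.05), beside 15.4% of all rows called. Calls of 1 higher and 3 lower were made when MG_2 and HG_1 were left out, and also with 1 surrogate variable, beside 27.1% and 33% of all rows. TCP1 (chr6:159778498-159789749, minus strand), the alpha subunit, had 234.4, 221.2, 233.2, 234.1 and 230.8 CPM in MG_1 to MG_5 and 189.9, 199.7, 199.9, 210.6 and 210.3 CPM in HG_1 to HG_5. HG lay below MG in every library, at 231 ± 5.5 CPM in MG and 202 ± 8.64 CPM in HG, with a log2 fold change of -0.19 (SE 0.0404, edgeR adjusted p = 0.0092). CCT2 (chr12:69585334-69601570, plus strand), the beta subunit, had 324.1, 315.4, 307.5, 321.3 and 317.9 CPM in MG_1 to MG_5 and 276.2, 273.9, 275.6, 283.3 and 281.3 CPM in HG_1 to HG_5. Again no library overlapped, at 317 ± 6.39 CPM in MG and 278 ± 4.01 CPM in HG, a log2 fold change of -0.19 (SE 0.0327, edgeR adjusted p = 0.00299). The call of TCP1 is lost in 2 limma fits on FPKM (limma adjusted p up to 0.0546). TCP1 shares 397 exonic bases with ACAT2 on the other strand, whose log2 fold change was 0.74, and whether reads were counted by strand is not given in the sources used here.

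Neighbouring subunits gave other values. CCT4 had 271.1, 280.7, 274.7, 280 and 275.2 CPM in MG_1 to MG_5 and 285.9, 294.5, 289.4, 296.7 and 294.1 CPM in HG_1 to HG_5. Every HG library was above every MG library, although the log2 fold change of 0.08 (SE 0.0319, edgeR adjusted p = 0.122) did not pass. CCT4 was called higher without MG_2 and HG_1 (edgeR adjusted p = 0.0125), with 1 surrogate variable (edgeR adjusted p = 0.0107) and by DESeq2 (adjusted p = 0.0182). After the GC and length correction CCT4 was not called, with a log2 fold change of 0.035 (edgeR adjusted p = 0.384). CCT3 had 374.5, 411.4, 373.1, 378 and 370.7 CPM in MG_1 to MG_5 and 399.4, 331.9, 350.2, 364.9 and 348 CPM in HG_1 to HG_5, with a log2 fold change of -0.09 (SE 0.0545, edgeR adjusted p = 0.332). Its highest values were those of MG_2 and HG_1, and without these libraries CCT3 was called lower (edgeR adjusted p = 0.0368), and likewise with 1 surrogate variable or the GC and length correction. CCT5 had 302.8, 297.2, 294.1, 309.3 and 300.4 CPM in MG_1 to MG_5 and 291.2, 292, 289.2, 300.4 and 293.9 CPM in HG_1 to HG_5, and overlapped between groups at -0.04 (SE 0.0325, edgeR adjusted p = 0.532).

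CCT6A had 308.2, 255.6, 298.8, 292.4 and 291.9 CPM in MG_1 to MG_5 and 264.7, 277.3, 275.1, 299.4 and 286.3 CPM in HG_1 to HG_5, with a log2 fold change of -0.04 (SE 0.0555, edgeR adjusted p = 0.668). Both groups covered much the same range. CCT7 had 301.6, 345.7, 301.3, 309 and 302.8 CPM in MG_1 to MG_5 and 345.4, 296.6, 313.7, 321.8 and 302.7 CPM in HG_1 to HG_5, with a log2 fold change of 0.02 (SE 0.0555, edgeR adjusted p = 0.878). Its highest libraries were MG_2 and HG_1. CCT8, the theta subunit, had 43.1, 71.7, 62.2, 22.3 and 59.2 CPM in MG_1 to MG_5 and 107.5, 27.4, 94, 56.4 and 101.1 CPM in HG_1 to HG_5. It spread several-fold within each group, unlike the other 7 main subunits, and the log2 fold change was 0.58 (SE 0.38, edgeR adjusted p = 0.367). Per length CCT8 was at 10.9 to 33.6 FPKM in MG and 15.4 to 50.2 FPKM in HG, below TCP1, CCT2, CCT3, CCT4, CCT5, CCT6A and CCT7 in every library. The lowest value among those 7 was 74.1 FPKM, of TCP1 in HG_1. The reason for the low and uneven CCT8 values was not tested. CCT6B, a testis form, was at 0.35 on the log2 scale, and CCT8L2 had no counts.

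Ratios within a library do not depend on the scaling of libraries. In FPKM, CCT2 stood at 1.32 to 1.39 times CCT4 in MG and at 1.09 to 1.14 times in HG, and TCP1 at 0.811 to 0.964 times CCT4 in MG and 0.688 to 0.759 times in HG. Neither ratio overlapped between the groups. These ratios were chosen after the values were seen and carry no test.

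**Figure D5:**
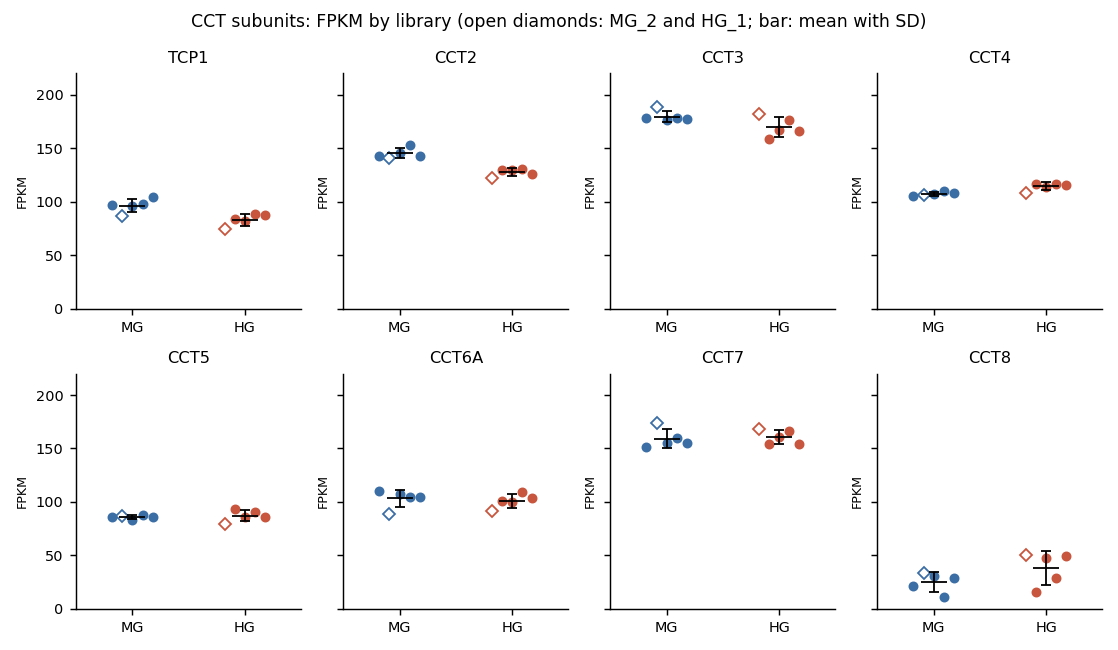
FPKM (y axis, from 0) in each library of the 8 CCT subunit genes; circles are libraries, open diamonds MG_2 and HG_1, bars the mean with SD of 5 libraries. TCP1 and CCT2 are lower in HG, CCT4 has means of 107 and 114 FPKM in MG and HG, and CCT8 varies between libraries at the bottom of the scale.

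J-domain proteins deliver clients to HSP70 and start its ATP cycle. Of 41 genes 37 passed the filter, 1 rose and 3 fell, with a median log2 fold change of 0.00, beside 15.4% of all rows called. Leaving out MG_2 and HG_1 gave 5 higher and 6 lower, beside 27.1% of all rows, and with 1 surrogate variable 6 were higher and 6 lower, beside 33%. DNAJA1 (chr9:33025211-33039907, plus strand), the main class A partner of HSPA8, had 287.6, 265.4, 284.1, 281.3 and 266 CPM in MG_1 to MG_5 and 211.6, 235.2, 224.1, 239.6 and 238.4 CPM in HG_1 to HG_5. HG was below MG in all libraries, at 277 ± 10.4 CPM in MG and 230 ± 11.9 CPM in HG, with a log2 fold change of -0.27 (SE 0.0465, edgeR adjusted p = 0.00309). Set against HSPA8 per length, DNAJA1 stood at 0.135 to 0.151 in MG and at 0.0963 to 0.113 in HG, a ratio chosen after the values were seen. DNAJA2, DNAJA3 and DNAJA4 were at -0.03, 0.12 and 0.10 on the log2 scale.

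Class B had 9 of 10 genes past the filter, of which 0 passed by edgeR and 0 by DESeq2, with 1 at an unadjusted p under 0.05. Of all rows, 15.4% and 16.6% were called. Without MG_2 and HG_1, 3 were lower and 0 higher, beside 27.1% of all rows. With 1 surrogate variable 3 were lower (33% of all rows called), and after the GC and length correction 1 was (29.3%). DNAJB1, the class B partner of HSP70 in breaking up aggregates, had 273.6, 283, 273.6, 274.3 and 274.7 CPM in MG_1 to MG_5 and 286.1, 252.3, 258.2, 255.9 and 258.1 CPM in HG_1 to HG_5. Apart from HG_1, every HG library was below every MG library, and the log2 fold change was -0.07 (SE 0.0418, edgeR adjusted p = 0.284). Without MG_2 and HG_1 it was -0.10 (edgeR adjusted p = 0.00825), and DNAJB2 and DNAJB6 were then lower as well, at -0.12 (edgeR adjusted p = 0.0456) and -0.15 (edgeR adjusted p = 0.0015). DNAJB6 is known for holding back the aggregation of polyglutamine proteins.

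Class C joins proteins that share little beyond the J domain, and 24 of 27 passed the filter, 1 rising and 2 falling, beside 15.4% of all rows called. More were called in other fits. Without MG_2 and HG_1, 5 were higher and 2 lower, beside 27.1% of all rows. With 1 surrogate variable, 6 were higher and 2 lower, beside 33% of all rows. DNAJC9 (chr10:73183362-73248862, minus strand), a histone chaperone, had 34.6, 33.6, 35.6, 35.7 and 32.7 CPM in MG_1 to MG_5 and 29, 28.7, 26.1, 30.5 and 30.1 CPM in HG_1 to HG_5. At 34.5 ± 1.27 CPM in MG and 28.9 ± 1.73 CPM in HG, the groups were apart, with a log2 fold change of -0.26 (SE 0.0556, edgeR adjusted p = 0.0107). DNAJC2 (chr7:103312474-103344873, minus strand), which sits on ribosomes and receives new chains, had 37, 34.6, 38.6, 36 and 33 CPM in MG_1 to MG_5 and 27.7, 29.9, 30, 31.4 and 32.2 CPM in HG_1 to HG_5. It too was lower in every HG library, at 35.8 ± 2.18 CPM in MG and 30.2 ± 1.73 CPM in HG, with a log2 fold change of -0.24 (SE 0.0605, edgeR adjusted p = 0.0197).

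DNAJC27 (chr2:24943636-24972094, minus strand), a small GTPase with a J domain, had 3.7, 4.37, 4.21, 3.96 and 4.42 CPM in MG_1 to MG_5 and 5.22, 6.71, 6.22, 4.8 and 5.11 CPM in HG_1 to HG_5. No libraries overlapped at this low level of 4.13 ± 0.302 CPM in MG and 5.61 ± 0.813 CPM in HG, and the log2 fold change was 0.44 (SE 0.12, edgeR adjusted p = 0.0308). DNAJC27 fell short of the threshold in 5 of the 10 fits that leave out 1 library, and DNAJC2 in 3 of them. Exons of DNAJC9 and DNAJC2 overlap other genes on the opposite strand over 1131 and 628 bases. The remaining tested DNAJC genes were between -0.11 (DNAJC4) and 0.32 (DNAJC25-GNG10) on the log2 scale. DNAJC25-GNG10 shares 85.8% of its 100-base windows with other genes, mainly GNG10, so its value is uncertain.

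BAG proteins release the nucleotide from HSP70, and 1 of 6 rose, beside 15.4% of all rows called. BAG1 (chr9:33247820-33264720, minus strand), which links HSP70 to the proteasome, had 69.9, 83.4, 84.2, 81.5 and 72.7 CPM in MG_1 to MG_5 and 99.4, 90.5, 87.7, 86.6 and 95 CPM in HG_1 to HG_5. The groups were apart by a narrow gap, at 78.3 ± 6.57 CPM in MG and 91.8 ± 5.32 CPM in HG, with a log2 fold change of 0.23 (SE 0.0656, edgeR adjusted p = 0.0382). BAG1 fell short of the threshold in 7 of the 10 fits that leave out 1 library. BAG3, the partner of HSPB8, had 131.6, 138, 135.6, 136 and 132.2 CPM in MG_1 to MG_5 and 160, 131.8, 141.9, 145.8 and 136.2 CPM in HG_1 to HG_5. It did not pass, with a log2 fold change of 0.09 (SE 0.0529, edgeR adjusted p = 0.319), and BAG2, BAG4, BAG5 and BAG6 were at 0.03, -0.16, -0.06 and 0.05.

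HSF1 and HSF2 are the transcription factors of the set, and 0 of 2 passed by edgeR, with 1 at an unadjusted p under 0.05 and 1 (HSF1, lower) by DESeq2. Of all rows, 15.4% were called by edgeR and 16.6% by DESeq2. HSF1 had 36.3, 42.5, 34.5, 32.8 and 32.3 CPM in MG_1 to MG_5 and 28.1, 29.4, 27.4, 32.6 and 31.9 CPM in HG_1 to HG_5. A single HG library, HG_4, exceeded an MG library, and the log2 fold change was -0.26 (SE 0.0849, edgeR adjusted p = 0.0677). HSF1 was also called lower with 1 surrogate variable (edgeR adjusted p = 0.0329), and stood at -0.16 without MG_2 and HG_1 (edgeR adjusted p = 0.0936). HSF2 had 22.2, 17.7, 18.9, 21.2 and 21.3 CPM in MG_1 to MG_5 and 15.8, 20.9, 19.5, 19.5 and 20.4 CPM in HG_1 to HG_5, and overlapped between the groups at -0.07 (SE 0.0908, edgeR adjusted p = 0.663).

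Below the filter stayed 12 members: CCT8L2, DNAJB8, DNAJC5G and HSPB7 with 0 counts in every library, and DNAJC12, DNAJC5B, HSPA12B, HSPB2-C11orf52, HSPB3, HSPB6, HSPB9 and HSPE1-MOB4. Apart from HSPE1-MOB4, none of them had more than 18 counts in a library. A count of 0 allows up to 3 counts, or 0.0654 to 0.0925 CPM, which covers counting error only.

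A list of 30 genes that HSF1 is generally held to induce, 19 of them members, had 8 genes called, beside 15.4% of all rows called. Of these, 4 were higher and 4 lower, and the median log2 fold change of the list was -0.03. The list was drawn up with earlier results of these data known. Of the CCT subunits it holds only TCP1 and CCT2, both called, and CCT4. Its share called is therefore a description and no test of HSF1 targets. Higher were HSPA8, HSPB8, HSPD1 and HSPA4L, an HSP110 outside the set. Lower were DNAJA1, TCP1, CCT2 and SERPINH1, the collagen chaperone, at -0.42 (SE 0.0857, edgeR adjusted p = 0.00773) on the log2 scale. Without MG_2 and HG_1, 14 of the 30 passed, 7 in each direction, beside 27.1% of all rows. The split moved with the fit, to 6 higher and 10 lower after the GC and length correction (29.3% of all rows called). It was 8 higher and 9 lower with 1 surrogate variable (33%), and 8 higher and 4 lower with DESeq2 (16.6%). Another list of 32 genes outside the set held co-chaperones, prefoldin subunits and exchange factors, with the small heat shock protein CRYAB, the mitochondrial HSP90 TRAP1 and HSPA4L. Of these 32, 2 rose and 0 fell by edgeR (2 of the 32 had an unadjusted p under 0.05, and DESeq2 called 2), beside 15.4% of all rows. Some members of this list were lower in other fits. After the GC and length correction 2 were higher and 4 lower, beside 29.3% of all rows. With 1 surrogate variable 5 were higher and 4 lower, beside 33% of all rows. Leaving out MG_2 and HG_1 gave 3 higher and 1 lower, beside 27.1% of all rows. TTC4, an HSP90 and HSP70 co-chaperone, had 20.1, 24, 22.4, 23.2 and 23.4 CPM in MG_1 to MG_5 and 28.2, 27.1, 27.3, 25.4 and 27.4 CPM in HG_1 to HG_5. Its groups did not overlap, with a log2 fold change of 0.26 (SE 0.0603, edgeR adjusted p = 0.0148), and it was called in all 10 fits that leave out 1 library. HSPA4L had 67.7, 57.3, 67.5, 70.4 and 66.3 CPM in MG_1 to MG_5 and 63, 89.6, 84.9, 89.8 and 87.2 CPM in HG_1 to HG_5. All HG libraries but HG_1 were above MG, with a log2 fold change of 0.33 (SE 0.0977, edgeR adjusted p = 0.0425). Its call was lost in 9 of the 10 fits that leave out 1 library, all but the one without HG_1, and in the fits with library size alone, with no filter and with limma, with adjusted p up to 0.277.

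Of 6 related chaperones of the endoplasmic reticulum that the choice of members leaves out, 3 fell and 0 rose by edgeR with all libraries, beside 15.4% of all rows called. Without MG_2 and HG_1, 3 fell and 1 rose, beside 27.1% of all rows. HSPA5, the HSP70 of that compartment, had 997.5, 908.4, 929.8, 953.4 and 954.2 CPM in MG_1 to MG_5 and 563.5, 585.6, 608.3, 531.8 and 567 CPM in HG_1 to HG_5. DNAJB11 and DNAJC3, J-domain proteins of the same compartment, were at -0.54 and -0.36 on the log2 scale, and HSPA5 at -0.73. The other 3 did not pass, at -0.00 (HSPA13) and, for the J-domain proteins DNAJB9 and DNAJC10, at 0.14 and 0.15. After the GC and length correction and with 1 surrogate variable, 3 of the 6 fell and 1 rose as well, beside 29.3% and 33% of all rows.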

How the data were processed

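RNA of 5 MG and 5 HG libraries of ARPE-19 cells was sequenced. The authors deposited a table of read counts per gene, whole numbers without normalization, and a table of FPKM values, scaled by the authors for transcript length and library depth. The submitters' processing notes name fastp 0.20.1, HISAT2 2.2.1 and GRCh38; the counting program, annotation and strand setting are not given in the sources used here. The total count per library was between 32448991 and 45864176. The members and lists were chosen with earlier results of these data known.

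HG was compared with MG by edgeR 4.0.16 (R 4.3.3) with its default filter, TMM normalization, the quasi-likelihood test and Benjamini-Hochberg adjustment over all 14936 rows tested, with a threshold of 0.05. FPKM values served for levels between genes. Named with values in every library were 24 members picked by their role and the called members with the 12 largest changes at a mean of at least 1 CPM (11 were called, 6 of them among the 24). Other members are given by their log2 fold change, and genes outside the set and the lists were named after their values were seen. Alternatives were scaling by RLE or by total counts only, the likelihood ratio test, DESeq2 1.42.0, tests of every row with 1 count or more, a floor of 10 counts per library, limma 3.58.1 on FPKM with pseudocounts of 1 and 0.1 on the log2 scale and, with a pseudocount of 1, for rows of mean FPKM 1 or more, 1 surrogate variable (sva 3.50.0), a lowess correction (span 0.3) for GC content and length, each library left out, and MG_2 and HG_1 left out. The code was tested on simulated data. Gene positions and overlaps come from GENCODE release 29, and promoter windows from RefSeq on GRCh38.p14.

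Between libraries of the same group the chi-square of the counts was 13.8 to 78.5 per gene, above sampling noise in each of the 20 pairs, so no library was treated as a duplicate.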

Additional observations from a re-analysis of the deposited data

Results flagged for a closer look

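In 12 of 58 groups of 5 libraries (29 named members in MG and in HG), the highest or lowest library lay apart from the others by more than Dixon's limit. Chance flags about 1 in 20 groups, or 2.9 of 58. In all 12 the library was MG_2 or HG_1, the pair whose counts rise with GC content. The part of GC content in these values was not tested gene by gene.

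MG_2 was low for HSPA4 (215.5 CPM, the others 244.3 to 253.3 CPM), HSP90AA1 (1067.3 CPM, the others 1223.8 to 1284.1 CPM), HSP90AB1 (1256.2 CPM, the others 1295 to 1306.6 CPM) and TCP1 (221.2 CPM, the others 230.8 to 234.4 CPM). It was high for HSPB1 (437.2 CPM, the others 329.1 to 346.1 CPM), DNAJB1 (283 CPM, the others 273.6 to 274.7 CPM) and HSPE1 (126.4 CPM, the others 87.9 to 98.5 CPM). Among the CCT subunits it was high for CCT3 (411.4 CPM, the others 370.7 to 378 CPM) and CCT7 (345.7 CPM, the others 301.3 to 309 CPM). HG_1 was high for HSPB1 (453.6 CPM, the others 287.6 to 334.4 CPM) and DNAJB1 (286.1 CPM, the others 252.3 to 258.2 CPM), and low for HSF2 (15.8 CPM, the others 19.5 to 20.9 CPM).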

How the results depend on the processing

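The 11 members called became 7 with limma on log2(FPKM + 0.1), 18 after the GC and length correction, 25 with 1 surrogate variable and 21 without MG_2 and HG_1, and lay between 8 and 14 with 1 library left out. The HSF1 list moved from 8 to 16, 17 and 14 calls under the GC correction, the surrogate variable and the omission of the pair. The co-chaperone list moved from 2 to 1 with library size alone, with no filter and in all 3 limma fits, to 6, 9 and 4 under the GC correction, the surrogate variable and the omission of the pair, and to between 1 and 4 with 1 library left out. It was 1 without any single library except HG_1, and 4 without HG_1. The share called over all rows moved too, from 15.4%. It was 29.3% under the GC correction, 33% with the surrogate variable and 27.1% without the pair. The cause of these shifts was not tested. The median log2 fold change of the members changed by less than the spread between libraries under every alternative run.

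Of 637 values of named members under alternatives, 589 kept their side of the threshold, 25 lost and 23 gained a call, and no call reversed. Uncalled values changed sign in 7 cases. HSPA9, HSPB8, HSPD1, CCT2, DNAJA1 and DNAJC9 kept their call in every alternative. With all libraries, the limma fits on FPKM ended the calls of TCP1 in 2 fits (limma adjusted p up to 0.0546), DNAJC2 in 2 (up to 0.054), BAG1 in 3 (up to 0.0838) and HSPA8 in 1 (0.0512), and edgeR's likelihood ratio test ended that of DNAJC27 (adjusted p = 0.0777). With 1 library left out, the calls of BAG1, DNAJC27, DNAJC2 and HSPA8 were lost in 7, 5, 3 and 1 of 10 fits. No paired fit was run. The deposited columns of both groups carry numbers, but the HG labels carry letters. Nothing in the labels ties an HG library to an MG library.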
